A study of Homo sapiens with 12 samples.

Results

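The miR-320 family is a set of near-identical human miRNAs. A miRNA finds its targets through the seed at its 5′ end, which 3 of the 4 members with a sequence printed below share exactly. The 5 members hsa-miR-320a, hsa-miR-320b, hsa-miR-320c, hsa-miR-320d and hsa-miR-320e were chosen by name from a table of 2588 mature miRNA entries, and all 5 had an entry. Small RNA had been sequenced from HEK293T, a line of human embryonic kidney cells with the SV40 large T antigen, after transient transfection with a control siRNA or an siRNA against Tudor-SN. Tudor-SN, the product of SND1, is an endonuclease, and the study asked which mature miRNAs it degrades, a pathway called TumiD. Every group was grown in the same medium with 10% fetal bovine serum, and each of 2 runs held 3 control siRNA and 3 Tudor-SN siRNA libraries. Run 1 started from a fraction enriched in short RNA, with libraries purified from polyacrylamide gel, and run 2 from total RNA, with libraries sized on a Pippin Prep. Nothing in the labels names the replicates as separate cultures, and each p-value reflects the variation among these libraries alone, which may be technical. SND1 mRNA was not measured, so the depth of the knockdown is unknown here.

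A typical miRNA hairpin is cut out of a long transcript by Drosha and then trimmed to a duplex by Dicer. The miR-320a hairpin is the textbook exception: work in mouse cells showed that its transcript begins at the base of the hairpin itself, carries a methylguanosine cap, leaves the nucleus through Exportin 1 and needs Dicer but not Drosha. The cap hinders loading of the 5′ arm, so almost only the 3′ arm enters Argonaute. Counts of mature miRNAs hold no trace of the precursor, so this route was not checked for any member in these libraries.

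The mature sequences of the members are shown because the members differ from each other at only a few bases and in where they begin and end, and these decide to which member a read is assigned. They are printed 5′ to 3′ from RefSeq on GRCh38.p14, where 4 of the 5 members had an entry, with the seed, bases 2 to 8, in capitals. hsa-miR-320a is named only. The last line is hsa-miR-4429, the other entry found with the same seed.
hsa-miR-320b: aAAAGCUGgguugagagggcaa
hsa-miR-320c: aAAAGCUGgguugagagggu
hsa-miR-320d: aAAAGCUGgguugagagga
hsa-miR-320e: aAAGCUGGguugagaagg
hsa-miR-4429: aAAAGCUGggcugagaggcg

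With positions counted from 1 at the 5′ end of hsa-miR-320b, hsa-miR-320c differed from it by C20U and hsa-miR-320d by G19A. The first 19 bases of hsa-miR-320b and hsa-miR-320c were therefore identical, as were the first 18 of hsa-miR-320b and hsa-miR-320d. hsa-miR-320e begins at position 2 of hsa-miR-320b and differs by G17A, so its seed is shifted by 1 base and is not the one the others share. hsa-miR-4429 differed by U11C, G19C and C20G. How the authors assigned reads that match several members is not given in the sources used here, so the separate values of the members are uncertain.

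The precursors of hsa-miR-320b are shown because 2 different hairpins give the same mature miRNA, so its counts cannot be split between them. The mature sequence is in capitals. It lies in the 3′ arm of both hairpins, with 9 bases after it.
MIR320B1: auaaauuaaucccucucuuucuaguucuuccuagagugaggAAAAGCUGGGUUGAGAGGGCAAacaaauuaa
MIR320B2: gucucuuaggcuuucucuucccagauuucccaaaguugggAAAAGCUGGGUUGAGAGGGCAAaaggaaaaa

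In RefSeq, MIR320B1 lies on the plus strand of chromosome 1 at 116671746 to 116671817, outside any gene of the GENCODE release 29 annotation. MIR320B2 lies on the minus strand of chromosome 1 at 224257040 to 224257110, in an intron of NVL on the same strand.

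The other hairpins, placed by GENCODE on GRCh38, were spread over the genome. MIR320C1 (chromosome 18, 21683510 to 21683597) lies in an intron of ABHD3 and MIR320C2 (chromosome 18, 24321686 to 24321735) in an intron of OSBPL1A, both on the strand opposite to the gene. MIR320D1 (chromosome 13, 40727828 to 40727875) and MIR320D2 (chromosome X, 140926172 to 140926219) lie outside annotated genes. MIR320E (chromosome 19, 46709293 to 46709345) lies in an intron of PRKD2 on the same strand.

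MIR320A, the capped hairpin, is on chromosome 8 at 22244962 to 22245043 on the minus strand, outside annotated genes. Its mature product, hsa-miR-320a, was the only abundant member.

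Counts assigned to miRNAs ranged from 222452 to 270191 per library in the run 1 controls, from 658568 to 1092713 in the run 1 Tudor-SN libraries, from 927727 to 1653077 in the run 2 controls and from 1710708 to 3140214 in the run 2 Tudor-SN libraries. Depth and siRNA thus went together in both runs. Replicate libraries of a group differed beyond sampling noise (chi-square divided by its degrees of freedom, 2.31 to 34.9), and Tudor-SN replicate 3 of run 2 stood farthest from its group. No miRNA defines HEK293T, but miR-10a-5p and miR-10b-5p, abundant in it, had at least 127806 and 34600 counts in every library. The 10 listed miRNAs of liver, blood, muscle, nerve and endothelium summed to 0.176% to 0.204% of counts in the run 1 controls, 0.225% to 0.284% with Tudor-SN siRNA, 0.336% to 0.346% in the run 2 controls and 0.410% to 0.428% with Tudor-SN siRNA. Most of these counts came from miR-9-5p of nerve and miR-486-5p of blood in every group. They had 288 to 372 and 104 to 118 counts per run 1 control library. In the run 2 controls they had 753 to 1320 and 2401 to 4308. The blood miRNAs miR-142-3p and miR-223-3p had no count in any of the 12 libraries, while miR-451a of red cells and miR-122-5p of liver reached at most 1 count. Some other listed markers were higher with Tudor-SN siRNA, most of them in only 1 of the runs. In run 1, miR-1-3p of muscle went from 1 to 5 counts per control library to 51 to 105 (log2 fold change 2.98, edgeR adjusted p = 2.4e-11), and miR-126-3p of endothelium (1.54) and miR-9-5p of nerve (0.37) were also called higher among 4 markers tested. In run 2, miR-126-3p (1.05) and miR-486-5p of blood (0.205) were called higher among 3 tested, and miR-133a-3p of muscle, not tested, had 0 to 1 counts per control library and 11 to 23 per Tudor-SN library. Over all miRNAs tested, 21.4% were called higher in run 1 and 24% in run 2, at an adjusted p under 0.05. The rest of the listed markers did not rise clearly. miR-124-3p of nerve had at most 2 counts in any library. In run 1 miR-486-5p was not called (0.22, edgeR adjusted p = 0.23) and miR-133a-3p had at most 1 count. In run 2 miR-9-5p was not called (-0.007, edgeR adjusted p = 0.94), and miR-1-3p had 0 to 1 counts per control library against 1 to 3. The part of these markers in the results below was not tested.

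The members differed widely in level, and the family was small in all libraries. In run 1 its share of miRNA counts was 0.0373% ± 0.00818 with control siRNA and 0.0678% ± 0.00300 with Tudor-SN siRNA (SD, n = 3). In run 2 these shares were 0.0448% ± 0.00262 and 0.0704% ± 0.00481 (SD, n = 3). hsa-miR-320a made up between 91.4% and 97.3% of the family's counts in every library. By mean level it ranked 73rd of 598 miRNAs with a count in the run 1 controls, 58th of 711 in the run 1 Tudor-SN libraries, 80th of 939 in the run 2 controls and 68th of 1097 in the run 2 Tudor-SN libraries.

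hsa-miR-320a rose after Tudor-SN siRNA in run 1. Its raw counts, in the order of the replicate numbers, were 80, 119 and 64 with control siRNA against 713, 525 and 405 with Tudor-SN siRNA. Scaled to CPM, counts relative to a common library total that is adjusted by TMM so that most miRNAs centre on no change, these were 323, 440 and 300.0 against 637, 674 and 603. The lowest Tudor-SN library therefore lay above the highest control, replicate 2. The mean went from 354 ± 74.9 to 638 ± 35.2 CPM (SD, n = 3), a log2 fold change of 0.84 (SE 0.15, edgeR quasi-likelihood adjusted p = 2.1e-07), which is 1.79-fold. Of the 5 members it was the only one with enough counts to be tested in run 1. Among the 224 miRNAs tested, 48 or 21.4% were higher at an adjusted p under 0.05, and in 22.8% every Tudor-SN library lay above every control library. The rise of hsa-miR-320a was the 25th largest log2 fold change of the 224, and the median of all was -0.05. This scaling hides any change shared by the whole set of miRNAs, and in bulk RNA more expressing cells and more RNA per cell cannot be told apart.

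In run 2 hsa-miR-320a rose as well. It had 390, 758 and 456 counts with control siRNA against 2181, 1870 and 1058 with Tudor-SN siRNA. The scaled levels were 446, 458 and 433 CPM against 647, 631 and 621 CPM, so both groups were tight and did not overlap. The mean went from 446 ± 12.3 to 633 ± 12.9 CPM (SD, n = 3), a log2 fold change of 0.51 (SE 0.07, edgeR adjusted p = 1.1e-05) or 1.42-fold. This was the 69th largest log2 fold change of the 383 tested. The authors' deposited table gives a log2 fold change of 0.96 (adjusted p = 7.1e-08) in run 1 and 0.58 (adjusted p = 1.6e-11) in run 2 for this miRNA.

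hsa-miR-320b, which has the same seed as hsa-miR-320c and hsa-miR-320d, rose in run 2 and by more. The controls held 9, 31 and 26 counts of it, against 182, 105 and 65 with Tudor-SN siRNA. These were 10.3, 18.7 and 24.7 CPM against 54.0, 35.4 and 38.2 CPM, again with every Tudor-SN library above every control. From 17.9 ± 7.23 to 42.5 ± 10.0 CPM (SD, n = 3) the log2 fold change was 1.23 (SE 0.26, edgeR adjusted p = 0.00076), 2.35-fold, and the 6th largest of 383 tested. Both tested members were thus higher in run 2, where 92 of 383 miRNAs, or 24%, were called higher and 27.9% had every Tudor-SN library above every control library.

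In run 1 hsa-miR-320b had too few counts for the test, with 1, 1 and 3 in the control libraries against 21, 25 and 9 after knockdown. Its levels were 4.03, 3.69 and 14.1 CPM against 18.8, 32.1 and 13.4 CPM, so the groups overlapped through control replicate 3 and Tudor-SN replicate 3. The controls lay at or under the 11.1 to 14.1 CPM that 3 counts were worth there, the most that a count of 0 allows, so no fold is given. In the authors' deposited table hsa-miR-320b had a log2 fold change of 1.39 in run 1 with an adjusted p of 0.12.

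**Figure D1:**
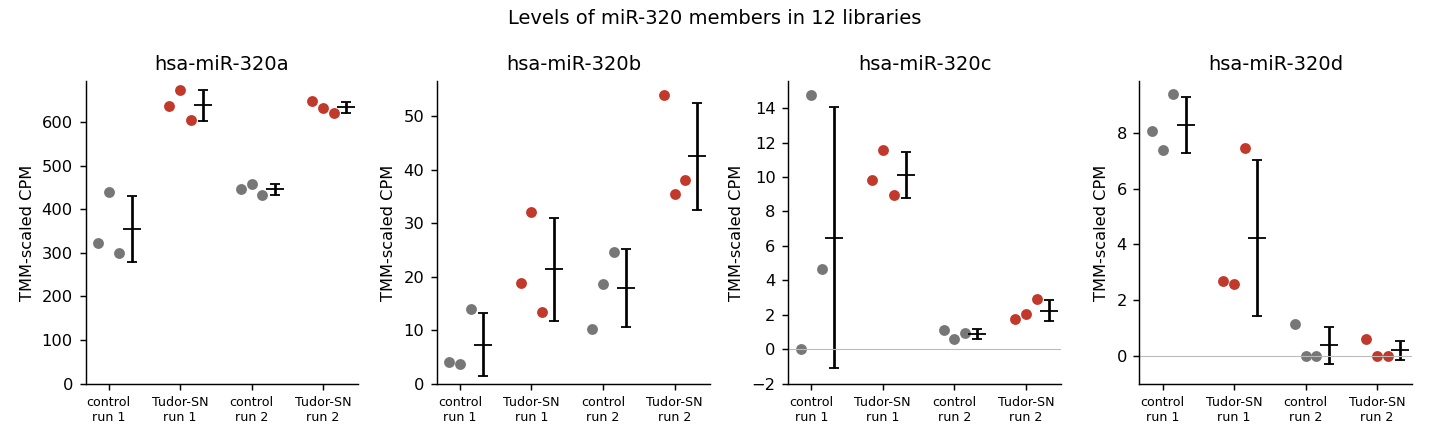
TMM-scaled CPM of hsa-miR-320a, hsa-miR-320b, hsa-miR-320c and hsa-miR-320d in each of the 12 libraries, scaled within each run, on linear axes that differ between panels. Points are libraries, and the black dash and bar give the mean and SD of 3. For hsa-miR-320a every Tudor-SN library (red) lies above every control library (grey) of its run, from 603 against at most 440 CPM in run 1 and from 621 against at most 458 CPM in run 2.

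The rarer members were near the limit of counting. hsa-miR-320c had 0, 4 and 1 counts in the run 1 controls and 11, 9 and 6 in the run 1 Tudor-SN libraries, or 0, 14.8 and 4.69 CPM against 9.82, 11.6 and 8.94 CPM. The groups overlapped, with control replicate 2 the highest of all. In run 2 it had 1 count in each control against 6, 6 and 5 after knockdown, in deeper libraries. These were 0.604 to 1.14 CPM against 1.78 to 2.94 CPM. The run 2 controls lay under the level that 3 counts were worth there, 1.81 to 3.43 CPM. hsa-miR-320d had 2 counts in each run 1 control and 3, 2 and 5 in the run 1 Tudor-SN libraries, which is 7.39 to 9.37 CPM against 2.57 to 7.45 CPM. In run 2 it was seen only in replicate 1, with 1 count in the control and 2 in the Tudor-SN library. hsa-miR-320e, the member with the shifted seed, had 0 counts in all 12 libraries, which allows a level of up to 2.68 to 14.1 CPM in run 1 and 0.890 to 3.43 CPM in run 2. Limits and intervals here take in counting error alone, because reads copied by PCR, with no molecular identifier, need not be separate molecules. hsa-miR-4429 also had 0 counts in all libraries. In order of level the members were therefore hsa-miR-320a, then hsa-miR-320b, with hsa-miR-320c and hsa-miR-320d below or level with hsa-miR-320b within their spread in run 1 and both far below it in run 2.

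**Figure D2:**
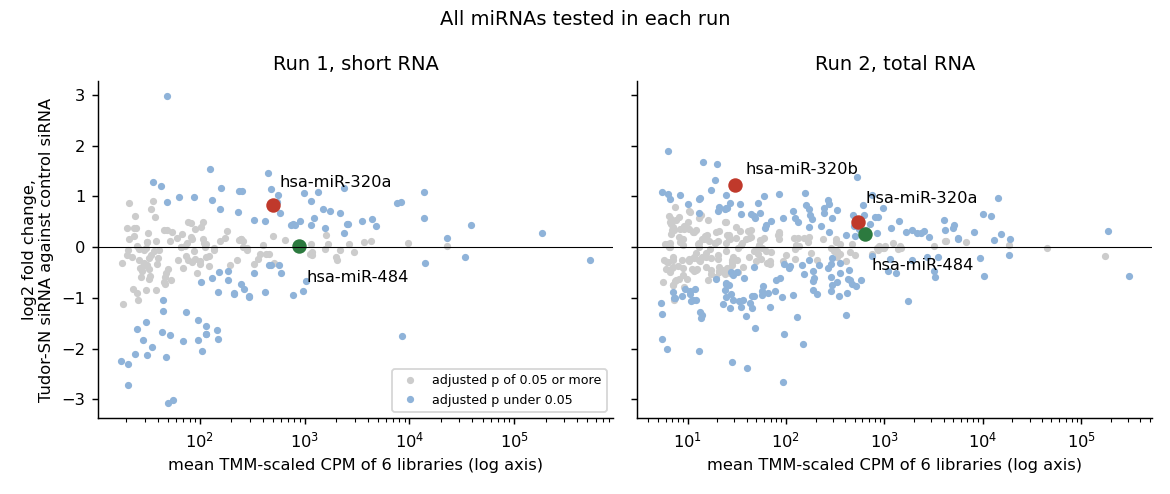
Log2 fold change of Tudor-SN siRNA against control siRNA for each miRNA tested, against its mean TMM-scaled CPM over the 6 libraries of the run on a log axis, for 224 miRNAs in run 1 and 383 in run 2. Blue points have an adjusted p under 0.05. hsa-miR-320a (red) stands at 0.84 and 0.51, hsa-miR-320b at 1.23 in run 2, and hsa-miR-484 (green) at 0.02 and 0.26.

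Whether the rise of hsa-miR-320a differed between the runs depended on the scaling. In a fit over all 12 libraries the difference, run 2 minus run 1, was -0.28 on the log2 scale (95% interval -0.61 to 0.05, edgeR adjusted p = 0.29), where 34 of 378 miRNAs, or 8.99%, were called in either direction. The median of all 378 was itself 0.19 in that fit, so relative to it hsa-miR-320a stood at -0.47. RLE scaling, which puts that median at -0.06, gave -0.53 (edgeR adjusted p = 0.035). DESeq2 gave -0.52 (adjusted p = 0.00052), and TMM computed within each run, added after seeing the data, gave -0.44 (edgeR adjusted p = 0.064). The difference passed the threshold without any 1 of the 6 run 1 libraries, and was -0.92 without control replicate 2 of run 1 (edgeR adjusted p = 0.00014). When any 1 of the run 2 libraries was left out it did not pass, and without Tudor-SN replicate 3 of run 2 it was -0.06 (edgeR adjusted p = 0.85). Relative to the median of all tested miRNAs, the value stayed between -0.60 and -0.35 in the 18 alternatives with the count filter in edgeR. In the fit over all 12 libraries with TMM, hsa-miR-320a ranked 270th of 378 from the highest value down. There 28.6% of the tested miRNAs had a lower value still. hsa-miR-320b in run 1 and hsa-miR-320c in both runs had control libraries with 0 to 4 counts, so fitted differences between the runs are not read for either.

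The level of hsa-miR-320a without the knockdown was compared between the 2 RNA preparations in the 6 control libraries. On a common scaling, run 2 against run 1 gave -0.21 (95% interval -0.49 to 0.06, edgeR adjusted p = 0.15), whereas 242 of 302 miRNAs, or 80.1%, were called in either direction. The median of all 302 was 0.18, and relative to it hsa-miR-320a stood at -0.39. The sign turned to 0.28 with library size alone, to 0.295 with no filter on low counts and to 0.076 without control replicate 2 of run 1, and the call changed when libraries were thinned to equal totals (-0.38, edgeR adjusted p = 0.044). RNA fraction, sizing, sequencer and read processing differed together between the runs and cannot be told apart. The other members had too few counts in the controls for this comparison.

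A ratio of members within a library does not depend on scaling. The share of hsa-miR-320b in the summed counts of hsa-miR-320a and hsa-miR-320b was 1.23%, 0.833% and 4.48% in the run 1 controls and 2.86%, 4.55% and 2.17% in the run 1 Tudor-SN libraries. In run 2 it was 2.26%, 3.93% and 5.39% with control siRNA against 7.70%, 5.32% and 5.79% with Tudor-SN siRNA. The groups overlapped in both runs. Counting error alone was wide in the run 1 controls, with a 95% Wilson interval of 1.53% to 12.4% for replicate 3, which had 3 counts of hsa-miR-320b. On the log2 scale the ratio of hsa-miR-320b to hsa-miR-320a was 0.85 higher with Tudor-SN siRNA, averaged over the runs (exact two-sided permutation test within runs, p = 0.090, smallest possible p 0.0050). The difference was 0.89 in run 1 (exact p = 0.30) and 0.81 in run 2 (exact p = 0.20), where 3 libraries against 3 cannot give less than 0.10. Without control replicate 3 of run 1, the control with the highest share in its group, it was 1.21 (exact permutation p = 0.010). With any other library left out, the exact permutation p lay between 0.060 and 0.19. With 0.5 counts added to each, the difference was 0.62 (exact permutation p = 0.13). The larger fold change of hsa-miR-320b in run 2 is therefore not shown to differ from that of hsa-miR-320a.

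miR-484, whose hairpin also starts at a capped transcription start and bypasses Drosha, was the listed miRNA closest to hsa-miR-320a in route and level. MIR484 lies on chromosome 16 at 15643294 to 15643372, where it overlaps an exon of NDE1. In run 1 miR-484 was at 881 ± 133 CPM in controls and 895 ± 165 CPM in Tudor-SN libraries (SD, n = 3), a log2 fold change of 0.02 (95% interval -0.24 to 0.27, edgeR adjusted p = 0.95). In run 2 it rose from 575 ± 22.4 to 691 ± 14.2 CPM, by 0.26 on the log2 scale (SE 0.07, edgeR adjusted p = 0.0031). Both capped miRNAs were thus higher in run 2, and hsa-miR-320a alone passed in run 1, with no test of the difference between them. Over all miRNAs tested, 24% of 383 were called higher in run 2 and 21.4% of 224 in run 1. The rise of miR-484 in run 2 was the 116th largest of the 383. Whether capped miRNAs differ from the rest was not tested.

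The ratio of hsa-miR-320a to miR-484 within each library does not depend on scaling and is given as a description, with no test. On the log2 scale it ran from -1.56 to -1.20 in the run 1 controls and from -0.65 to -0.19 in the run 1 Tudor-SN libraries. In run 2 it ran from -0.45 to -0.30 in the controls and from -0.128 to -0.126 in the Tudor-SN libraries. In both runs every Tudor-SN library had more hsa-miR-320a per miR-484 than every control. On scaled levels, every Tudor-SN library lay above every control for 22.8% of miRNAs tested in run 1 and 27.9% in run 2. That share was not counted for ratios to miR-484. The ratio was lower in the controls of run 1 than in those of run 2. On the common scaling, run 2 against run 1 gave -1.15 for miR-484 in the controls (edgeR adjusted p = 1.1e-10). For hsa-miR-320a it gave -0.21 (edgeR adjusted p = 0.15). Of all miRNAs tested there, 80.1% were called in either direction.

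**Figure D3:**
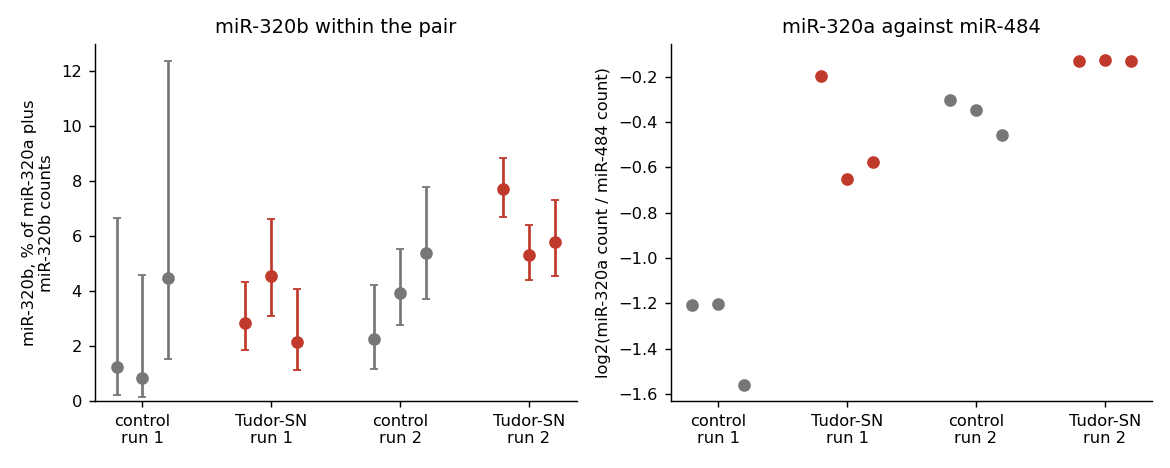
Ratios within each library, which do not depend on library scaling. Left, the share of hsa-miR-320b in the counts of hsa-miR-320a plus hsa-miR-320b, with 95% Wilson intervals for counting error, where controls (grey) and Tudor-SN libraries (red) overlap in both runs. Right, the log2 ratio of hsa-miR-320a to miR-484 counts, where each Tudor-SN library lies above the controls of its run, from -0.65 against at most -1.20 in run 1.

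Mirtrons, whose hairpins are released by splicing in place of Drosha, had few counts. Of 22 listed mirtron products, 14 had 0 counts in all 12 libraries and 8 had at least 1 count. Over the whole table, 1244 of 2588 entries had at least 1 count, and whether mirtrons differ from that share was not tested. None could be tested in run 1 and 2 could in run 2. miR-877-5p, from an intron of ABCF1, was at 8.09 ± 2.06 CPM in controls and 11.9 ± 1.61 CPM in Tudor-SN libraries of run 2 (SD, n = 3), a log2 fold change of 0.49 (95% interval -0.15 to 1.14, edgeR adjusted p = 0.19). miR-1226-5p was at 0.06 (95% interval -0.85 to 0.98, edgeR adjusted p = 0.90), and neither passed. Next by count came miR-1226-3p, with 15 counts over the run 2 controls and 30 over the run 2 Tudor-SN libraries, and miR-877-3p, with 11 and 12.

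Among the 198 other miRNAs tested in both runs, those whose pattern was most like that of the summed family counts were miR-501-3p, miR-99b-5p, miR-342-3p, miR-126-3p and miR-126-5p. Their Pearson correlations with the family were 0.961, 0.954, 0.943, 0.937 and 0.934 over 12 libraries, on log2 CPM centred within each run, against a median of 0.142 over the 198 and 0.466 for miR-484. The points share libraries and depth, and the siRNA groups make up most of the spread. Positive fold changes of the 5 therefore follow largely from how they were picked. In run 1 the log2 fold changes of these 5, in the same order, were 1.17, 1.09, 1.07, 1.54 and 1.03. In run 2 they were 0.58, 0.38, 0.66, 1.05 and 1.02, lower than in run 1 for the first 4 and nearly the same for miR-126-5p. miR-126-3p, an endothelial miRNA, is also 1 of the 10 listed markers of other cells. Between hsa-miR-320a and hsa-miR-320b the same correlation was 0.650.

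**Figure D4:**
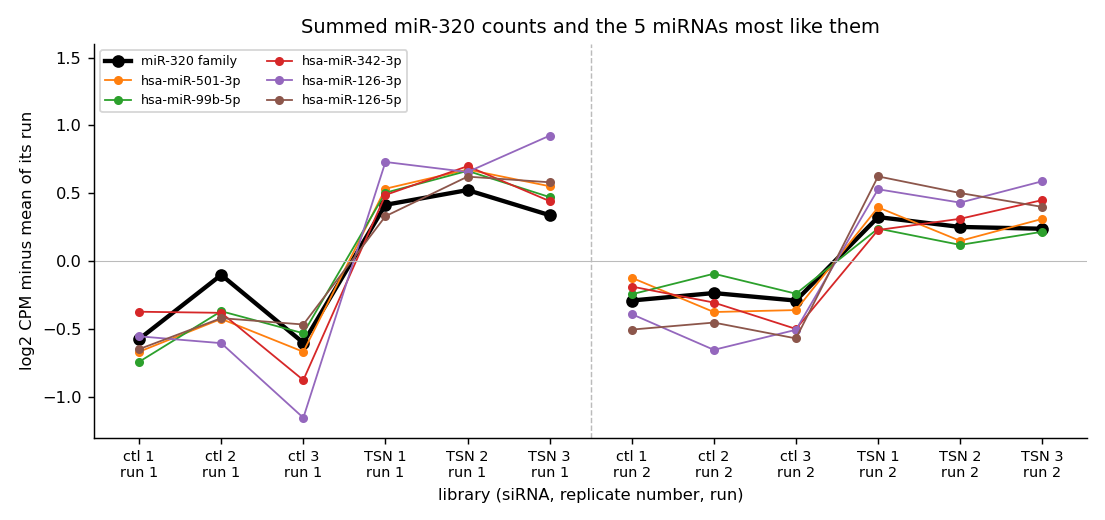
Log2 CPM of the summed miR-320 family counts (black) and of the 5 miRNAs most like them, each minus its mean over the 6 libraries of a run, in the 12 libraries. In both runs the control libraries (ctl) of every line lie below 0 and the Tudor-SN libraries (TSN) above it. For the 5 this follows largely from their choice by correlation over these same libraries. The family's control replicate 2 of run 1 is its control nearest to 0.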

How the data were processed

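The deposited table holds the authors' raw counts per mature miRNA, which are whole numbers, for all 12 libraries. Its adjusted p-values and log2 fold changes are the authors' own comparison, per the file headers, and were copied for the members only. A further 24 columns of scaled values were not used. Run 1 was aligned with Bowtie2, per the submitters' processing notes, which for run 2 list DESeq, DESeq2 and cutadapt beside it. Not given in the sources used here are the genome build, the annotation, the alignment settings and the handling of reads with several matches.

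Counts were tested with the quasi-likelihood F test of edgeR 4.0.16 (R 4.3.3), two-sided, with TMM scaling and filterByExpr (minimum count 10, minimum total 15). P-values were adjusted by Benjamini-Hochberg over all miRNAs tested, with a threshold of 0.05. Each run was fitted alone, both together with a siRNA by run interaction, and the controls of both runs together. Standard errors and 95% intervals were derived from the F statistic. The ratio of hsa-miR-320b to hsa-miR-320a was tested by exact permutation within runs. The tests were checked on simulated counts. DESeq2 1.42.0 was an alternative. The members, lists and rules for named miRNAs (members, miRNAs with a member's seed, miR-484, mirtrons and the 5 most alike) were chosen with earlier results of these data known. Groups and replicate numbers came from the labels. With totals of 222452 to 3140214 counts, 3 counts were worth 0.890 to 14.1 CPM. Sequences are from RefSeq (GRCh38.p14), matched by name for 2281 of 2588 entries.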

Additional observations from a re-analysis of the deposited data

How the results depend on the processing

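The rise of hsa-miR-320a kept its direction and its call in all 13 alternatives tried in run 1 (0.64 to 1.04) and all 13 in run 2 (0.50 to 0.63), and that of hsa-miR-320b in all 13 in run 2 (0.999 to 1.47). The number of miRNAs called was 99 in run 1 (85 to 108 in the alternatives), 195 in run 2 (152 to 198) and 242 between the controls (184 to 335). Upper quartile scaling turned the run 1 split of 48 higher and 51 lower to 33 and 69. For the difference between the runs, 34 were called, and 23 to 74 when a library was left out, 20 after thinning to equal totals and 55 with the replicate block. The split of 21 higher and 13 lower there became 10 and 34 with RLE scaling, 14 and 20 with upper quartile scaling and 13 and 31 with TMM within each run, while the median of all tested miRNAs moved with it, between -0.32 and 0.40. With a library left out, the difference between runs lay between -1.60 and 0.050 for hsa-miR-320b, reversed without control replicate 3 of run 2, and between -1.32 and 0.98 for hsa-miR-320c, reversed without control replicate 2 of run 1. Both rest on control libraries with 0 to 4 counts in run 1 and are not read. hsa-miR-320a between the controls reversed to 0.28 with library size alone and to 0.295 without the filter, and lay between -0.20 and 0.076 with a library left out. The log2 ratio of hsa-miR-320b to hsa-miR-320a lay between 0.59 and 1.21 when a library was left out. The labels do not say whether same-numbered libraries are paired. Their deviations correlated at 0.14, 0.15 and 0.08 in run 1 and at 0.05, 0.04 and 0.06 in run 2. The own number was the best match for all replicates of run 1 and for replicates 1 and 3 of run 2. These correlations are low, and pairing was not tested. With the replicate block, 108 miRNAs were called in run 1 and 198 in run 2, and the paired ratio of hsa-miR-320b to hsa-miR-320a was higher in 5 of 6 pairs (exact sign-flip p = 0.16). Depth limits hsa-miR-320c, hsa-miR-320d and hsa-miR-320e, which were at or near the floor.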

Other observations

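Tudor-SN is known to cut mature miRNAs at CA and UA dinucleotides away from their ends. Counted over the printed sequences, hsa-miR-320c, hsa-miR-320d and hsa-miR-320e had 0 such dinucleotides, and hsa-miR-320b had 1, at position 20, which is within 5 bases of its 3′ end. hsa-miR-320a, the abundant member, had no RefSeq sequence here, so it was not counted and is in none of the classes below. Of the 198 miRNAs tested in run 1 that had a RefSeq sequence, 34, or 17.2%, had none outside the 5 bases at either end. With Tudor-SN siRNA 3 of these 34 were called higher and 15 lower, with a median log2 fold change of -0.50, against 41 higher and 27 lower of the 164 with at least 1 (median 0.01). In run 2, 76 of 341 had none. Of these, 10 were higher, hsa-miR-320b among them, and 27 lower (median -0.22), against 73 and 63 of the other 265 (median 0.04). This count was chosen with the study's subject in mind and was not tested.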
